A study of Saccharomyces cerevisiae with 24 samples.

Results

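The genes described here encode the subunits of the yeast proteasome, together with *RPN4*, which encodes the transcription factor that activates them. They were chosen by name, as every gene on the array with a symbol given here that is PRE, PUP, RPN, RPT or SCL followed by a number. The rule used no measured value, though earlier results of these data were known. The rule found 33 of 4073 named genes: 14 subunits of the core particle, 18 subunits of the regulatory particle and *RPN4*. All 33 had 2 features on the array, had a value on all 24 arrays and passed the filter on missing values. The 2 features of a member correlated across the arrays with a median r of 0.87, from 0.46 for *RPT5* to 0.99 for *SCL1*.

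The proteasome degrades proteins that carry a chain of ubiquitin. Its core particle is a barrel of stacked rings, in which the beta rings hold the proteolytic sites and the alpha rings form the gate. The regulatory particle caps the barrel, with a base of ATPases that unfold the substrate and a lid that removes ubiquitin. In *S. cerevisiae* most subunit genes share a promoter element bound by Rpn4, and Rpn4 is itself a short-lived substrate of the proteasome, so that the genes are known to be induced together when protein damage builds up.

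RNA was compared on 2-colour Agilent arrays from *S. cerevisiae* cultures of an S288c background, strain YJF173 (Mat a, ho, ura3-52), whose native *FZF1* gene was deleted in all groups and which carried 1 of 4 *FZF1* alleles at *ura3*. Fzf1 is a zinc finger activator of the sulfite pump gene. The alleles were the *S. paradoxus* allele, the C.P. chimera with *S. cerevisiae* 5′ noncoding and *S. paradoxus* coding sequence, the P.C. chimera with the reverse arrangement, and the *S. cerevisiae* allele. Cells in rich medium acidified with tartaric acid were sampled 15 min after sodium sulfite at 1 mM and at 0 min, just before it, with 3 arrays for each allele and time. No culture without sulfite was sampled at 15 min, so the effects of sulfite and of the elapsed time cannot be told apart.

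Each value is a log2 ratio of the sample over a pool of all samples, centred on the median gene of its array, so levels can be compared between samples but not between genes. A response is the 15 min level minus the 0 min level. Because the RNA came from whole cultures, fewer cells with a transcript and less of it per cell cannot be told apart. The sample was labelled with Cy5 on 8 arrays, 1 in each group, and with Cy3 on the other 16. *FZF1*, read by probes of *S. cerevisiae* sequence, lay between −5.57 and −2.47 on the 12 arrays of the alleles with *S. paradoxus* coding sequence. On the array labelled *S. cerevisiae* allele at 0 min, replicate 2, it read −3.63, which goes against the label, since replicates 1 and 3 there read 0.18 and −0.11. The main counts, and the values that leaving out that array moves most, are therefore also given without it.

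After sulfite most proteasome subunit genes were modestly higher. In the mean response over the 4 alleles, 20 of the 32 subunit genes rose and 1, *PUP1*, fell (limma with Benjamini-Hochberg adjustment over 4071 genes, adjusted p under 0.05). Over all genes tested, 39.5% rose and 39.6% fell, so that calls in the 2 directions were about equally common there, whereas among the subunits the share that rose was 62.5% and the share that fell was 3.12%. The median response of the subunits was 0.20 on the log2 scale, or 1.15-fold, against 0.008 for all genes. Changes were small beside those of the transcriptome. The median absolute response was 0.21 for the subunits and 0.47 for all genes, and no member changed by 2-fold, which 9.87% of all genes exceeded upward and 10% downward. Without the array labelled *S. cerevisiae* at 0 min, replicate 2, the counts were again 20 higher and 1 lower (39.5% and 39.3% of all genes).

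**Figure D1:**
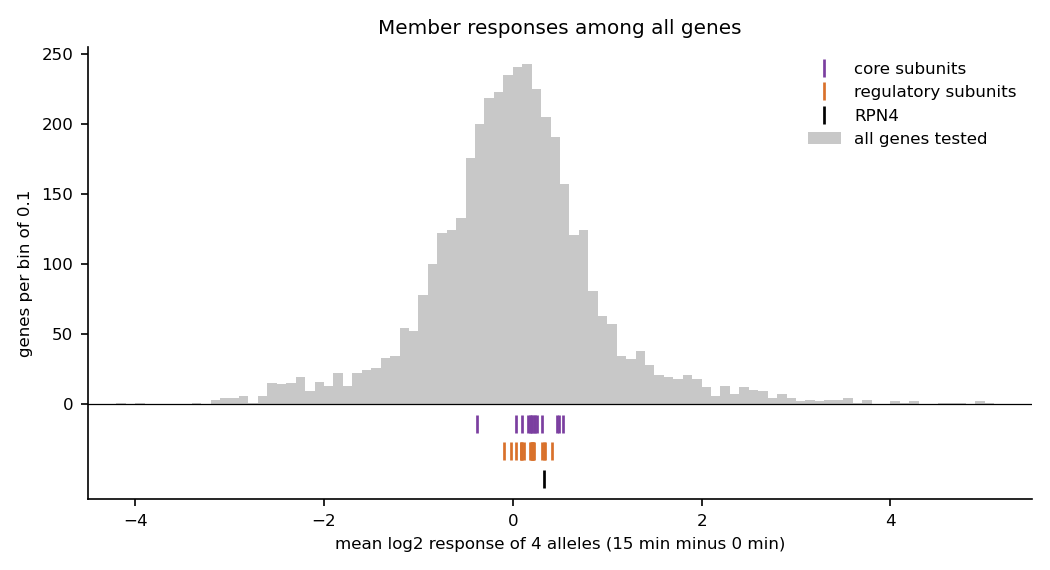
Histogram of the mean log2 response of all 4071 genes tested (number of genes per bin of 0.1), with each member marked by a tick under the axis: core subunits, regulatory subunits and *RPN4*. The members lie in the centre of the distribution, between −0.38 and 0.53, and 29 of the 32 subunits lie above 0.

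*RPN4*, the activator of these genes, rose with every allele. With the *S. paradoxus* allele its level was 0.43, 0.23 and 0.04 at 15 min, against −0.17, −0.21 and −0.325 at 0 min. With the C.P. chimera it was 0.20, 0.01 and −0.007 at 15 min, against −0.25, −0.07 and −0.305 at 0 min. With the P.C. chimera it was 0.05, 0.30 and 0.33 at 15 min, against −0.16, −0.01 and −0.025 at 0 min. In none of these alleles did the arrays of the 2 times overlap. With the *S. cerevisiae* allele the values were 0.05, 0.155 and 0.29 at 15 min, against 0.003, −0.21 and −0.11 at 0 min, again without overlap. Over the 4 alleles the mean response was 0.33 ± 0.056 (SE), or 1.25-fold, with an adjusted p of 2.4e-05 by limma. It was past the threshold within each allele as well, at 0.47 for *S. paradoxus*, 0.28 for C.P., 0.29 for P.C. and 0.27 for *S. cerevisiae* (adjusted p = 0.00137, 0.0412, 0.0319 and 0.0474). Without the array labelled *S. cerevisiae* at 0 min, replicate 2, the mean response was 0.31, and that with the *S. cerevisiae* allele was 0.22 and no longer past the threshold (adjusted p = 0.157).

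**Figure D2:**
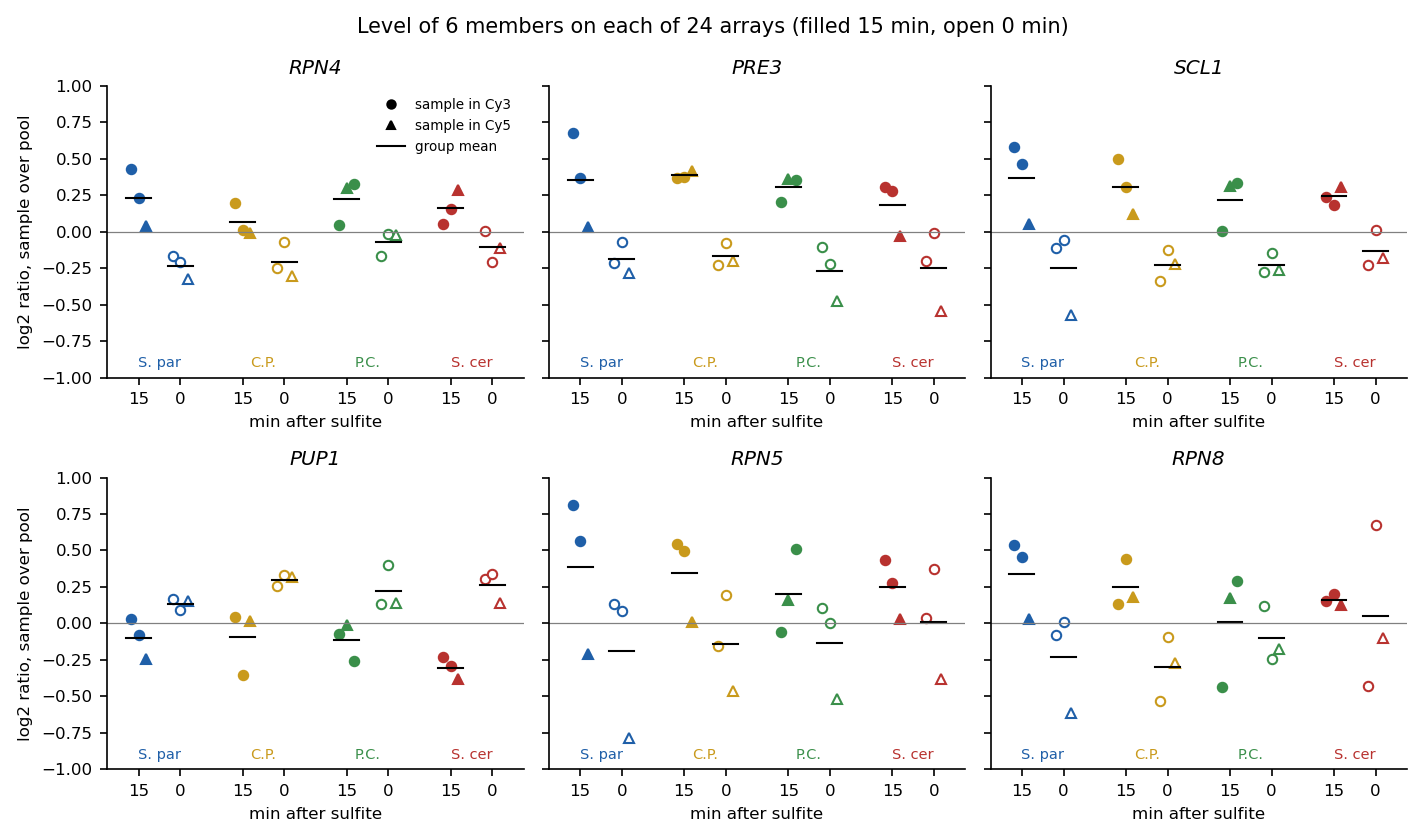
Log2 ratio of sample over pool on each of the 24 arrays for *RPN4*, *PRE3*, *SCL1*, *PUP1*, *RPN5* and *RPN8*, by allele and by min after sulfite (filled 15 min, open 0 min; circles Cy3, triangles Cy5; lines are group means, n = 3). *RPN4* is higher at 15 min and *PUP1* lower at 15 min in all 4 alleles without overlap, and *RPN8* has 1 array at 0.68 among the *S. cerevisiae* arrays at 0 min.

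Of the 14 core particle genes, 10 rose, 1 fell and 3 did not pass the test, with a median response of 0.21. The shares that rose and fell were 71.4% and 7.14%, beside 39.5% and 39.6% of all genes. The outer alpha ring, which gates the entry of substrates, had 5 of 7 genes higher (71.4%). *SCL1*, which encodes the first alpha subunit, responded most, at 0.49 ± 0.074 (SE; adjusted p = 3.57e-06). It read 0.58, 0.47 and 0.06 with the *S. paradoxus* allele at 15 min, against −0.11, −0.06 and −0.57 at 0 min. Over all arrays its level was between 0.005 and 0.58 (median 0.31, n = 12) at 15 min, against −0.57 to 0.01 (median −0.20, n = 12) at 0 min, so that the 2 times overlapped by a single array each way. The 0.01 is from the array whose *FZF1* signal went against its label, and over the other 11 arrays at 0 min the highest level was −0.06, below every array at 15 min. The group means of *SCL1* were 0.31 ± 0.19 at 15 min, against −0.23 ± 0.11 at 0 min, with C.P., 0.22 ± 0.18 against −0.23 ± 0.073 with P.C. and 0.24 ± 0.063 against −0.13 ± 0.125 with *S. cerevisiae* (SD, n = 3). *SCL1* was called within each of the 4 alleles, at 0.62, 0.54, 0.45 and 0.38 for *S. paradoxus*, C.P., P.C. and *S. cerevisiae*. The other alpha ring genes that rose were *PRE8* (0.31), *PRE5* (0.25), *PRE10* (0.24) and *PUP2* (0.23), and *PRE8* was also called within each allele.

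The alpha ring genes *PRE9* and *PRE6* did not pass. *PRE9* encodes the one alpha subunit that yeast can live without. Its estimate was 0.18 ± 0.17 (SE), the widest error among the members, with levels from −0.43 to 0.90 at 15 min, against −0.53 to 0.60 at 0 min. *PRE6* responded by 0.03 ± 0.077 (SE; adjusted p = 0.718), the smallest change in the core particle, with a median level of 0.02 at 15 min, against −0.025 at 0 min, and the 2 times overlapped almost wholly. Its group means were −0.03 at 15 min against −0.10 at 0 min with *S. paradoxus*, −0.005 against 0.075 with C.P., 0.07 against −0.12 with P.C. and 0 against 0.05 with *S. cerevisiae*, within SDs of 0.10 to 0.28 (n = 3).

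The 3 beta subunits that carry the proteolytic sites went different ways. *PRE3*, whose product cuts after acidic residues, had the largest response of all members, 0.53 ± 0.075 (SE) or 1.44-fold (adjusted p = 2.01e-06). Its level with the *S. paradoxus* allele was 0.68, 0.37 and 0.03 at 15 min, against −0.21, −0.07 and −0.28 at 0 min. With the C.P. chimera it was 0.37, 0.38 and 0.42 at 15 min, against −0.23, −0.075 and −0.20 at 0 min. These groups did not overlap. With the P.C. chimera *PRE3* read 0.20, 0.36 and 0.355 at 15 min, against −0.105, −0.22 and −0.48 at 0 min. With the *S. cerevisiae* allele it read 0.31, 0.28 and −0.03 at 15 min, against −0.20, −0.009 and −0.55 at 0 min, where the lowest array at 15 min lay just below the highest at 0 min. That highest value, −0.009, is from the array whose *FZF1* signal went against its label. Without it the times did not overlap with this allele either, and the response was 0.56, against 0.44 with it. *PRE2*, which encodes the chymotrypsin-like subunit, rose by 0.20 ± 0.059 (SE; adjusted p = 0.00384).

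*PUP1*, which encodes the trypsin-like subunit, was the only one of the 32 subunits that passed the test downward. For the *S. paradoxus* allele it read 0.03, −0.08 and −0.25 at 15 min, against 0.16, 0.09 and 0.15 at 0 min. With the C.P. chimera it read 0.045, −0.35 and 0.02 at 15 min, against 0.26, 0.33 and 0.32 at 0 min. With the P.C. chimera it read −0.08, −0.01 and −0.26 at 15 min, against 0.13, 0.40 and 0.14 at 0 min. No array at 15 min reached the level of any array at 0 min of its own allele. With the *S. cerevisiae* allele *PUP1* read −0.23, −0.29 and −0.385 at 15 min, against 0.31, 0.34 and 0.14 at 0 min, the widest separation of the 4 alleles. The mean response was −0.38 ± 0.056 (SE; adjusted p = 3.19e-06), which is 0.767 of the level at 0 min. Both of its features gave it, with −0.39 and −0.38. Within alleles it was called at −0.40 for C.P., −0.34 for P.C. and −0.56 for *S. cerevisiae*, while −0.23 for *S. paradoxus* did not pass (adjusted p = 0.0828).

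Among the beta subunits without a proteolytic site, *PRE1*, *PRE7* and *PRE4* rose and *PUP3* did not pass. *PRE1* had the third largest response, 0.47, but with a large error (SE 0.16, adjusted p = 0.0128). Its level ran from −0.27 to 0.99 (median 0.39) at 15 min, against −0.79 to 0.50 (median 0.05) at 0 min, and the 2 times overlapped widely. With the *S. paradoxus* allele it read 0.99, 0.59 and −0.27 at 15 min, against 0.21, 0.18 and −0.79 at 0 min. With the C.P. chimera it read 0.77, 0.505 and 0.065 at 15 min, against −0.14, 0.16 and −0.32 at 0 min. In both, the lowest array at 15 min lay below the highest at 0 min. With the P.C. chimera *PRE1* read 0.08, 0.26 and 0.64 at 15 min, against 0.13, 0.11 and −0.69 at 0 min. The *S. cerevisiae* allele gave 0.49, 0.30 and 0.05 at 15 min, against −0.002, 0.50 and −0.47 at 0 min, and the 0.50 is again from the array whose *FZF1* signal went against its label. *PRE7* responded by 0.19 ± 0.056 (SE) and *PRE4* by 0.16 ± 0.043 (SE). The call of *PRE1* was lost when the 8 arrays numbered replicate 1 were left out (adjusted p = 0.0862). *PUP3* responded by 0.10 ± 0.055 (SE; adjusted p = 0.103). It passed upward on Cy3 arrays alone (0.13, adjusted p = 0.0466), with array weights (0.13, adjusted p = 0.00861), without the *S. paradoxus* replicate 3 at 15 min (0.13, adjusted p = 0.0138) and without the arrays numbered replicate 3 (0.14, adjusted p = 0.041).

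**Figure D3:**
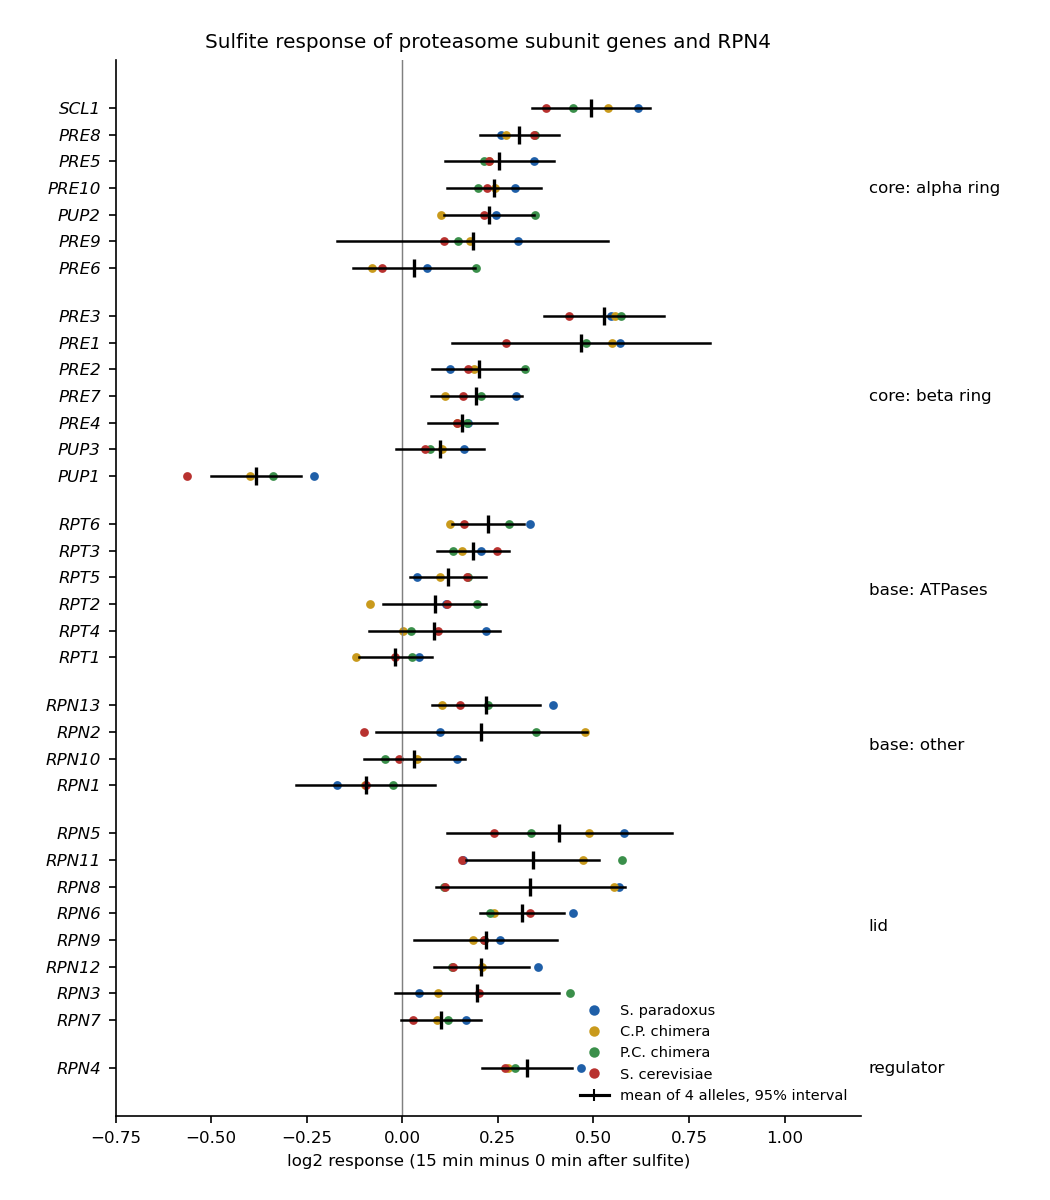
Log2 response (15 min minus 0 min) of the 32 subunit genes and *RPN4*, grouped by their place in the proteasome, with a point for each *FZF1* allele (mean of 3 arrays against 3) and a black tick and line for the mean of the 4 alleles with its 95% interval. Most means lie between 0 and 0.5, all 8 lid genes lie above 0, and *PUP1* alone has an interval wholly below 0.

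Of the 18 regulatory particle genes, 10 rose, none fell and 8 did not pass, with a median response of 0.20. The share that rose was 55.6%, beside 39.5% of all genes, and 39.6% of all genes fell. The 8 lid genes had a median of 0.265, and 6 of them rose (75%). *RPN5*, which encodes a scaffold subunit of the lid, had the largest response of the particle at 0.41 ± 0.14 (SE; adjusted p = 0.0119). With the *S. paradoxus* allele it read 0.81, 0.57 and −0.21 at 15 min, against 0.13, 0.09 and −0.79 at 0 min. The low value at each time came from the array with the sample in Cy5. Over all arrays *RPN5* lay between −0.21 and 0.81 (median 0.36) at 15 min, against −0.79 to 0.37 (median 0.02) at 0 min, and to 0.19 there without the array labelled *S. cerevisiae* at 0 min, replicate 2. Its group means were 0.35 ± 0.30 at 15 min, against −0.14 ± 0.33 at 0 min, with C.P., 0.20 ± 0.29 against −0.14 ± 0.34 with P.C. and 0.25 ± 0.21 against 0.009 ± 0.38 with *S. cerevisiae* (SD, n = 3).

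*RPN11* encodes the metalloprotease that cuts ubiquitin from the substrate. It rose by 0.34 ± 0.083 (SE; adjusted p = 0.000906). The C.P. chimera gave 0.57, 0.24 and 0.045 at 15 min, against −0.25, 0.01 and −0.33 at 0 min, and the P.C. chimera 0.42, 0.34 and 0.23 at 15 min, against −0.12, −0.22 and −0.39 at 0 min. In both chimeras the times did not overlap. In the *S. paradoxus* strain it read 0.32, 0.33 and −0.40 at 15 min, against 0.05, −0.16 and −0.11 at 0 min. With the *S. cerevisiae* allele it read 0.24, 0.205 and −0.03 at 15 min, against 0.10, −0.01 and −0.14 at 0 min. In these 2 alleles the times overlapped.

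*RPN8*, the partner of Rpn11 in the lid, responded by 0.335 ± 0.12 (SE; adjusted p = 0.0143). With the *S. cerevisiae* allele it read 0.15, 0.20 and 0.13 at 15 min, against −0.43, 0.68 and −0.10 at 0 min, and the value of 0.68 is from the array whose *FZF1* signal went against its label. Without that array the mean response of *RPN8* was 0.41 (adjusted p = 0.00101), and that with the *S. cerevisiae* allele was 0.42, against 0.11 with it. With the *S. paradoxus* allele it read 0.54, 0.45 and 0.03 at 15 min, against −0.08, 0.01 and −0.61 at 0 min, which did not overlap. Its group means were 0.25 ± 0.165 at 15 min, against −0.30 ± 0.22 at 0 min, with C.P. and 0.008 ± 0.39 against −0.10 ± 0.20 with P.C. (SD, n = 3). The call of *RPN8* in the mean response was lost on Cy3 arrays alone (0.29, adjusted p = 0.0949) and without the 8 arrays numbered replicate 3 (adjusted p = 0.0978), and that of *RPN5* without the 8 numbered replicate 1 (adjusted p = 0.0685). *RPN6* (0.31), *RPN9* (0.22) and *RPN12* (0.21) also rose. *RPN3* (0.195) and *RPN7* (0.10) did not pass.

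The base had a median response of 0.10, with 4 of 10 genes higher, a share of 40% beside 39.5% of all genes, and none lower. Of its ATPases, which unfold and thread the substrate, *RPT6* (0.22), *RPT3* (0.185) and *RPT5* (0.12) rose and *RPT1*, *RPT2* and *RPT4* did not pass. The smallest change of all members was that of *RPT1*, with −0.02 ± 0.046 (SE; adjusted p = 0.73) and levels from −0.13 to 0.155 at 15 min, against −0.13 to 0.13 at 0 min. Its group means were 0.01 at 15 min against −0.03 at 0 min with *S. paradoxus*, −0.006 against 0.12 with C.P., 0.05 against 0.03 with P.C. and −0.05 against −0.03 with *S. cerevisiae*. The call of *RPT5* was near the threshold (adjusted p = 0.0258) and was lost when any one of 3 single arrays was left out, the *S. paradoxus* replicate 1 at 15 min or at 0 min or the C.P. replicate 3 at 15 min (adjusted p from 0.051 to 0.052). It was also lost on the values as deposited, on Cy3 arrays alone, from the first feature alone and without each of the replicate numbers 1, 2 and 3 (adjusted p = 0.116, 0.201, 0.06, 0.127, 0.0875 and 0.0991). The group means of *RPT5* were −0.06 at 15 min against −0.10 at 0 min with *S. paradoxus*, 0.02 against −0.08 with C.P., 0.10 against −0.07 with P.C. and −0.002 against −0.17 with *S. cerevisiae*. Of the ubiquitin receptors, *RPN13* rose by 0.22 and *RPN10* gave 0.03 ± 0.064 (SE; adjusted p = 0.658), with levels from −0.235 to 0.19 at 15 min, against −0.235 to 0.14 at 0 min. The group means of *RPN10* were 0.065 at 15 min against −0.08 at 0 min with *S. paradoxus*, −0.01 against −0.05 with C.P., −0.09 against −0.04 with P.C. and −0.008 against 0 with *S. cerevisiae*, so that it was not higher at 15 min in all alleles. The large scaffold genes *RPN2* (0.21 ± 0.13, SE) and *RPN1* (−0.10 ± 0.087, SE) did not pass.

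The median responses of the core and regulatory particle were close, with a difference of 0.013. The regulatory median pooled the lid, with a median of 0.265, and the base, with 0.10. On single arrays the core median minus the regulatory median averaged 0.007 ± 0.054 at 15 min and −0.031 ± 0.075 at 0 min (SD, n = 12 arrays each). Among arrays of one group that difference varied by 0.073 (SD), a spread that includes the dye. It averaged −0.023 on Cy3 and 0.068 on Cy5 arrays at 15 min, and −0.066 and 0.038 at 0 min. As levels cannot be compared between genes, only its change between times can be read. Whether the 2 particles differed in response was not tested. The core median averaged 0.14 ± 0.097 at 15 min and −0.08 ± 0.051 at 0 min, and the regulatory median 0.13 ± 0.095 at 15 min and −0.05 ± 0.074 at 0 min (SD, n = 12 arrays each). At 15 min the array median of the core ran from 0.01 to 0.34, and at 0 min it ran from −0.15 to −0.008, with no overlap. That of the regulatory particle ran from −0.04 to 0.35 at 15 min and from −0.155 to 0.08 at 0 min, or to 0.04 there without the array labelled *S. cerevisiae* at 0 min, replicate 2. The highest core and regulatory medians, 0.34 and 0.35, were on the same array, replicate 1 of the *S. paradoxus* allele at 15 min.

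Within single alleles fewer members passed. In the *S. paradoxus* strain 11 of 32 subunits rose and none fell, where 30.3% of all genes rose and 29.7% fell. With the C.P. chimera 4 rose and 1 fell (29.3% each way over all genes). With the P.C. chimera 7 rose and 1 fell (28.7% and 28.6%), and with the *S. cerevisiae* allele 5 rose and 1 fell (29% and 29.4%). The share of subunits that rose was thus between 12.5% and 34.4%, and at most 3.12% fell in any allele. *SCL1*, *PRE8* and *PRE3* were called higher in every allele. Without the array labelled *S. cerevisiae* at 0 min, replicate 2, the counts with the *S. cerevisiae* allele were 4 higher and 1 lower (27.5% and 27.7% of all genes).

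The counts within an allele changed when single arrays were left out. The shares of all genes called in these fits are not given, so these shifts cannot be told from shifts over all genes. With the *S. paradoxus* allele, leaving out 1 array at 15 min gave 4 subunits higher without replicate 1, 7 without replicate 2 and 19 without replicate 3, and leaving out replicate 3 at 0 min gave 6. With the C.P. chimera 2 rose without its replicate 1 at 0 min and 7 without the *S. paradoxus* replicate 3 at 15 min, and *PUP1* was not called without the C.P. replicate 2 at 15 min. With the P.C. chimera 4 rose without replicate 2 at 15 min, and *PUP1* was not called without replicate 3 at 15 min or replicate 2 at 0 min. With the *S. cerevisiae* allele 2 rose without replicate 1 at 15 min, 3 without replicate 3 at 15 min and 2 without replicate 3 at 0 min.

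The estimates were nonetheless mostly positive in each allele. They lay above 0 for 30 of 32 subunits with the *S. paradoxus* allele, 27 with C.P., 29 with P.C. and 26 with the *S. cerevisiae* allele. For 25 subunits they lay above 0 with all 4 alleles and for *PUP1* and *RPN1* below 0 with all 4, where 40.9% of all genes were above and 40.8% below. The arrays at 15 min lay wholly above those at 0 min for 11 subunits with the *S. paradoxus* allele (29.3% of all genes), 11 with C.P. (33%), 16 with P.C. (31.1%) and 10 with the *S. cerevisiae* allele (32.3%). They lay wholly below for 1 subunit, *PUP1*, in each allele (29.7%, 32.8%, 30.5% and 32.7% of all genes). Without the array labelled *S. cerevisiae* at 0 min, replicate 2, which leaves 3 arrays against 2 with that allele, 18 subunits lay wholly above and 1 wholly below, where 36.3% of all genes lay above and 35.6% below, and the estimates were above 0 for 27 subunits with it.

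No difference between *FZF1* alleles was detectable in these genes. None of the 33 members passed the F-tests of limma with 3 degrees of freedom, for a difference among alleles in level over both times or in response, and 0 of 33 had an unadjusted p below 0.05 in either test. Over all genes 0.0737% and 0% were called, and 5.9% and 5.35% had an unadjusted p below 0.05. The lowest p for the allele effect was 0.0932, for *PUP3* (adjusted p = 0.961). *PUP3* read 0.42, 0.37 and −0.015 with the *S. paradoxus* allele at 15 min, against 0.10, 0.10 and 0.05 with the *S. cerevisiae* allele at 15 min. The 2 Cy3 arrays of the *S. paradoxus* allele were thus high, and its Cy5 array was below all arrays of the other allele. *RPN4* and *RPT5* came next. In the test of the response *RPN11*, *PUP1* and *RPN8* had the smallest p, each with an adjusted p of 1. Under the analysis of variance of the study's methods, with each feature as an observation and P under 0.01 without adjustment, 20 of 32 subunits had a time effect (80.5% of all genes), 1, *PUP3*, had an allele effect (12.1%) and 0 had an allele effect that depended on time (12.1%).

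Neither the comparison of the *S. paradoxus* with the *S. cerevisiae* allele, at 15 min, at 0 min or in response, nor the effects of the coding and 5′ noncoding regions gave a call among the members. Their interaction, the full length alleles against the chimeras, gave none either. Of all genes 0.0246% were called in each direction at 15 min and 0% at 0 min or in response, and at most 0.0246% in either direction for a region or the interaction. The interaction had an unadjusted p below 0.05 for 1 member in level and 1 in response (590 and 193 of all 4071 genes). These were *PUP3*, with 0.24 (95% interval 0.009 to 0.47), and *RPN11*, with −0.73 (−1.43 to −0.04). The difference in response ran from −0.16 for *RPN3* to 0.46 for *RPN8*, with a median 95% half-width of 0.38. Differences below that size could not be seen for a typical member. Larger ones could also go uncalled, because these intervals are not adjusted for the number of genes tested. Without the array labelled *S. cerevisiae* at 0 min, replicate 2, the difference for *RPN8* was 0.14 ± 0.29 (SE; adjusted p = 0.958), and the subunits ran from −0.18 for *RPN3* to 0.29 for *PUP1*. For *PUP1* the response with the *S. paradoxus* allele was −0.23, against −0.56 with the *S. cerevisiae* allele. The difference was 0.33, with a 95% interval from −0.001 to 0.67 and an adjusted p of 0.52 by limma. For *RPN4* the same responses were 0.47 and 0.27, a difference of 0.20 with an interval from −0.13 to 0.53, and 0.25 without the same array.

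The level of 15 of the 32 subunits differed with the dye of the sample. When the dye was added to the fit, 5 subunits were higher and 10 lower on arrays with the sample in Cy5 than on arrays with it in Cy3, where 27.1% of all genes were higher and 26.2% lower. The largest were *PRE9*, with a difference of −0.68 ± 0.095 (SE), *PRE1* with −0.61 ± 0.10 and *RPN5* with −0.54 ± 0.086. For *PRE9* the 4 Cy5 arrays at 15 min averaged −0.21 and the 8 Cy3 arrays 0.49, and at 0 min the averages were −0.37 and 0.295. Each group held 1 Cy5 array, so the dye was balanced over the groups and the mean responses are those of the fit without it. The SE of the mean response of *PRE9* was 0.089 with the dye in the fit, against 0.17 without it, and its adjusted p was 0.0625.

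Within each dye the response was alike in direction. It was above 0 for 28 of 32 subunits on the Cy5 arrays (median 0.21) and for 29 of 32 on the Cy3 arrays (median 0.20). *RPN4* responded by 0.35 on Cy5 and 0.32 on Cy3 arrays, and *PUP1* by −0.34 and −0.40. *RPN2* differed, with −0.02 on Cy5 and 0.32 on Cy3 arrays, a difference that was not tested. With the dye in the fit, 22 subunits rose and 2 fell, where 42.1% of all genes rose and 41.9% fell. *RPN2* and *RPN3* were added to those that rose, and *RPN1* (−0.10, adjusted p = 0.0315) to *PUP1*.

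**Figure D4:**
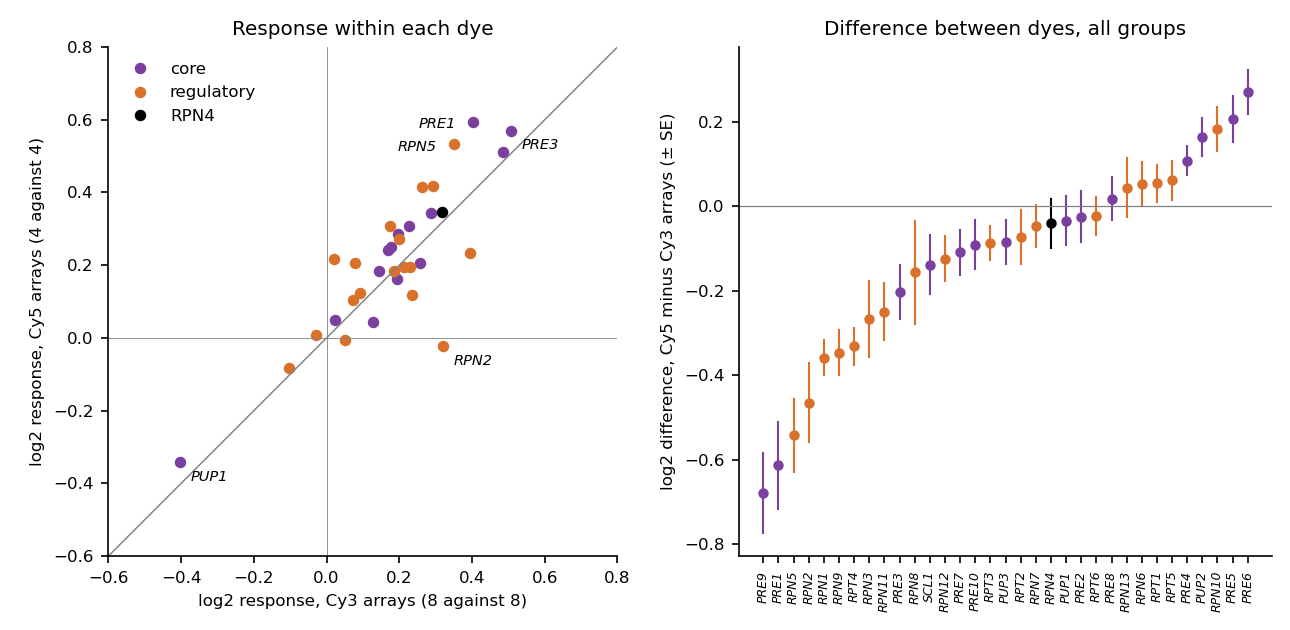
Left, log2 response of each member on the 4 Cy5 arrays against 4 (vertical) and on the 8 Cy3 arrays against 8 (horizontal), with the line of equality. Right, difference in log2 level between Cy5 and Cy3 arrays over all groups (± SE), ordered by size. Most members lie near the line on the left while their levels on the right differ between dyes by up to 0.68.

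The responses of genes that act before the proteasome spanned a wider range than those of the subunits. Of 26 measured genes of ubiquitin attachment, removal and delivery, 12 rose and 10 fell, with a median of 0.06. These shares, 46.2% and 38.5%, were near those of all genes, 39.5% and 39.6%. The polyubiquitin gene *UBI4* rose by 2.08 ± 0.11 (SE), or 4.24-fold, with levels from 0.04 to 1.00 at 15 min, against −1.93 to −1.12 at 0 min. *DOA4*, which encodes a ubiquitin hydrolase that recycles ubiquitin, rose by 1.28 ± 0.047 (SE). *HRD1*, which encodes a ubiquitin ligase of the endoplasmic reticulum, rose by 1.00 ± 0.056 (SE), and the 2 times did not overlap for any of these 3 genes. The genes that fell most were *SSM4*, also called *DOA10*, a ligase of the same membrane, with −1.13 ± 0.086 (SE), *SAN1*, a ligase for misfolded nuclear proteins, with −0.665 ± 0.063, and *TOM1* with −0.455 ± 0.060.

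**Figure D5:**
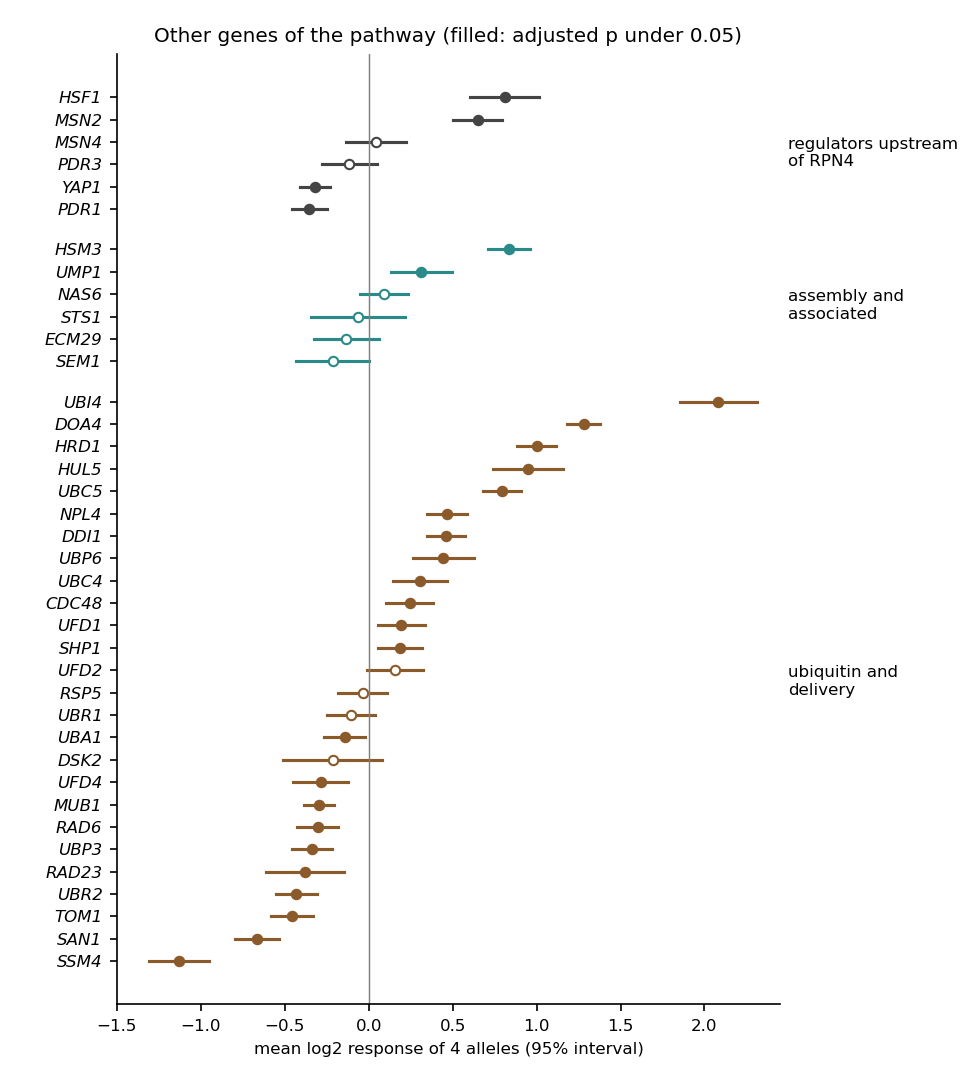
Mean log2 response of the 4 alleles with its 95% interval for 6 regulators upstream of *RPN4*, 6 genes of proteasome assembly and association and 26 genes of ubiquitin attachment and delivery (filled points have an adjusted p under 0.05). *UBI4* is highest at 2.08 and *SSM4* lowest at −1.13, a wider range than that of the subunits.

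Rpn4 is marked for degradation by the ligase Ubr2 with its partner Mub1 and the conjugating enzyme Rad6. These 3 genes were singled out after their values were seen, from the list of 26 in which 12 rose and 10 fell. All 3 fell, as did 39.6% of all genes. A link to the rise of *RPN4* RNA was not tested. *UBR2* gave −0.43 ± 0.058 (SE), *MUB1* −0.30 ± 0.043 and *RAD6* −0.305 ± 0.059. *UBR2* lay between −0.34 and 0.005 at 15 min, against −0.02 and 0.45 at 0 min.

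Of the 6 factors described as regulators of *RPN4* in yeast, 2 rose and 2 fell, 33.3% each way, which is no more than the share of all genes. The heat shock factor gene *HSF1* rose by 0.81 ± 0.097 (SE) and the general stress factor gene *MSN2* by 0.65 ± 0.070. *PDR1*, a factor of drug resistance, gave −0.355 ± 0.050 and *YAP1*, the main factor of the oxidative stress response, −0.32 ± 0.043. Their relatives *MSN4* (0.04) and *PDR3* (−0.12) did not pass.

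Of 16 genes of proteasome assembly and association, 6 were measured under their names here. Of these 2 rose and none fell, and the 33.3% that rose is below the 39.5% of all genes. *HSM3*, a chaperone for the assembly of the base, rose by 0.84 ± 0.060 (SE), more than any subunit, with levels from −0.03 to 0.52 at 15 min, against −0.70 to −0.33 at 0 min. *UMP1*, the chaperone that matures the core particle, rose by 0.31 ± 0.086. *NAS6* (0.09), *STS1* (−0.06), *ECM29* (−0.13) and the small lid subunit gene *SEM1* (−0.22), which the naming rule leaves out, did not pass. None of the genes of these 3 lists passed either F-test for the allele. At an unadjusted p below 0.05 there were 3 ubiquitin genes and *PDR3* for the effect over both times, and 2 ubiquitin genes for the effect that varied by time.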

How the data were processed

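The deposited log2 values are ratios of sample over pool made by the authors, who median normalized each array; the scanner settings, background correction and the filter behind empty features are not given in the sources used here. A symbol for 1 gene was given for 8152 of 15744 features, and the other 7592 were not used. Value rows were matched to the gene list by position on the array grid, a match that rests on the data: the 2 features of a gene then correlated with a median r of 0.93 (4070 genes), against −0.005 when rows were matched by equal numbers. In all 125 symbols were updated through RefSeq.

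The mean of a gene's features was taken, and the median gene of an array was set to 0. A limma 3.58.1 model (R 4.3.3) with a mean for each of the 8 groups was fitted to the 4071 genes that had values on 2 or more arrays in all groups, and p-values were adjusted by Benjamini-Hochberg over all of them within each comparison, with a threshold of 0.05. Alleles were compared by F-tests and by contrasts of the full length alleles, of the 2 gene regions and of their interaction. Arrays of a group are separate samples by their labels and, per the study's methods, independent replicates; arrays carry no depth, and the precision is limited by 3 arrays in a group. The call of the mean response was tried on simulated data with independent noise for each gene and array. That simulation did not cover the comparisons of alleles or differences between dyes. Tables were made with Python 3.11.15, numpy 2.4.6 and pandas 2.3.3, and plots with matplotlib 3.10.9.

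Members and gene lists were chosen with earlier results of these data known. Values by array or as group means were given for *RPN4*, for the 3 largest and 2 smallest mean responses of each particle and for the 3 smallest p in each allele test; of other lists, the 3 largest responses each way were named, and any further gene is pointed out as picked with its values in view. Alternatives were other scalings, a dye term, Cy3 arrays alone, blocks by replicate number or culture, other summaries of features, complete genes, array weights, leaving out arrays, and the methods' analysis of variance by feature. Promoter and protein sequences were not analysed here.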

Additional observations from a re-analysis of the deposited data

How the results depend on the processing

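Quantile normalization, the median over features and complete genes alone moved none of the counts by over 1.5 times, and the same named members were called. The median response of all genes was −0.03 as deposited. On the values as deposited, the *S. cerevisiae* allele had 2 subunits higher, *PRE6* gave −0.01 and *RPN10* −0.009, and *RPT5* gave 0.079 (adjusted p = 0.116). With a dye term 2 subunits fell in the mean response, and 18 rose with the *S. paradoxus* allele (34.5% of all genes), 9 with C.P. (33.9%) and 11 with P.C. (33.4%). On Cy3 arrays alone 7 rose with C.P. (32%) and 3 with *S. cerevisiae* (30.7%). There 1 member (*PRE9*) had an interaction of the 2 gene regions in level over both times, and the share of all genes with such an interaction is not given. From the first feature alone 7 rose and 1 fell with *S. paradoxus*, core minus regulatory was −0.014 and *RPT1* gave 0.004. With array weights 22 rose (37.2% of all genes) and 1 fell (36.7%) with *S. paradoxus*, and 9 rose (34.5%) with *S. cerevisiae*. With C.P. 12 rose (36%) and 2 fell (35.1%). In the same fit 1 member (*PUP3*) had an allele effect over both times, as did 10.2% of all genes. *PUP3* also had an interaction of the 2 gene regions there, again without a share over all genes. Between the full length alleles at 15 min, 4 members (*SCL1*, *PRE10*, *PUP3* and *RPN6*) differed. The share of all genes that differed in that comparison is not given. In the methods' model, 1 member (*PUP3*) had an allele effect, where 12.1% of all genes did.

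A replicate block by number gave 7 subunits higher with C.P., and a replicate block by culture (a number at both times) 8. No other count moved by over 1.5 times. Shares over all genes are not given for these blocks, for the values as deposited or for the first feature alone. Per the labels' protocol each culture was sampled at both times, but no label says that a number marks a culture. Same-numbered arrays of an allele had r from −0.47 to 0.76 (12 pairs, median 0.40, against −0.23 for other numbers), and a median of 0.07 with dye means removed, so the numbers were not shown to pair samples.

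Leaving out each array or each replicate number gave 8 to 11 core and 6 to 13 regulatory genes higher and 1 to 2 subunits lower in the mean response. Shares over all genes are not given for the counts of this paragraph. By allele, 3 to 19 were higher with *S. paradoxus*, 2 to 8 with C.P., 0 to 8 with P.C. and 0 to 6 with *S. cerevisiae*, and 0 to 1 were lower with C.P. or P.C. Allele effects numbered 0 to 2 (*PRE9* and *RPN2* without replicate 3). Effects of a region or of the interaction of the 2 regions numbered 0 to 3. The 3 were interactions, of *PRE9*, *RPN2* and *RPN9* without replicate 3. Core minus regulatory ran from −0.007 to 0.06. *PRE6* ran from −0.037 to 0.073, *RPT1* from −0.045 to 0.015 and *RPN10* from −0.001 to 0.081. With 3 arrays in a group, most subunits did not pass in each allele of the main fit. The power of the test within 1 allele was not measured.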

Other observations

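At 15 min the levels of the subunits had a positive median correlation from array to array. Over the 12 arrays of that time, with the means of each allele and dye removed, the median Pearson r was 0.63 between core genes, 0.48 between regulatory genes, 0.60 between core and regulatory genes and 0.59 between *RPN4* and a subunit, against 0.002 between all gene pairs. At 0 min the same medians were 0.37, 0.02, 0.15 and 0.05, against 0.003 between all pairs. As measured, with allele and dye left in, they were 0.31, 0.32, 0.36 and 0.40 at 15 min and 0.16, 0.22, 0.18 and 0.09 at 0 min. At 15 min *RPN4* correlated with single subunits from −0.27 to 0.98 once the means were removed, and at 0 min from −0.58 to 0.58. *PRE6* had the lowest median r with the other members at 15 min, at −0.02, and *PUP1*, which fell, had 0.28. These values describe 12 arrays that share the pool and the normalization, and the difference between the times was not tested. The median over all gene pairs pools positive and negative pairs, so it is no baseline for a set of related genes. No other set was compared, and whether a few arrays carried the correlations was not tested.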
